A study of Mus musculus with 4 samples.

Results

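The o-organoid and y-organoid samples, both intestinal organoids, were compared with each other across all genes of a mouse expression array, with 1 array for each. They are 2 of the 4 samples of a study of acetylcholine made outside neurons and of Lgr5-positive stem cells of the mouse gut, in which whole intestine and isolated crypt were also measured. Every sample came from wild type C57/BL6 mice; no age, culture time or medium is given in the sources used here, nor is the meaning of the letters y and o. The source of both organoid samples is named as crypt-villus organoid, a culture in which crypt cells grow into closed epithelial bodies. Total RNA of 40 ng was labelled for the o-organoid sample and 20 ng for the y-organoid sample (and for crypt and intestine), so input and sample cannot be told apart. All spots that are not controls were used, 43020 for each array, which hold 39429 probes and 30107 named genes. A gene's level is its log2 signal relative to the 75th percentile of its array, and a difference is the o-organoid level minus the y-organoid level, so that 1 is 2-fold and 2 is 4-fold. With 1 array a side there is no replicate and no test: every difference below describes these 2 arrays.

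In the small intestine, Paneth cells at the crypt base secrete defensins and Wnt ligands and carry Notch ligands on their surface. Between them lie the Lgr5-positive stem cells, from which the epithelium is renewed. Their progeny become absorptive enterocytes or the secretory types: mucus-making goblet cells, hormone-making enteroendocrine cells and chemosensory tuft cells, which are also a known epithelial source of acetylcholine. In an organoid, all of these arise without stroma, vessels, nerves, immune cells or luminal microbes. In RNA from a whole culture, fewer cells of a type and less RNA per cell of that type cannot be told apart.

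The 75th percentile of intensity was 281 for y-organoid and 641 for o-organoid, and 16334 and 16504 genes were well above background. In all, 15548 genes were well above background on both arrays, 956 only for o-organoid and 786 only for y-organoid, and across the former the signals correlated with a Pearson's r of 0.952 (genes are not independent replicates). Probes spotted repeatedly on an array gave a spot SD of 0.144 for a difference, and 0.277 for signals under −2. That SD holds no variation between labellings or hybridizations. Different probes of a gene differed by an SD of 0.954, so a difference read by a single probe is less certain than its spots imply. Of 78 genes past 4-fold that had another usable probe, that probe pointed the same way for 74 and was past 2-fold in that direction for 50. Among all 3665 genes with another usable probe, it pointed the same way for 2354 and the opposite way for 1311. Epithelial markers were present on both arrays: 15 of 16 were well above background on each, including Cdh1 (2.98 on y-organoid, 2.95 on o-organoid) and Krt8 (7.02 and 7.07). Many defining markers of other tissues were not well above background on either organoid array, among them Col1a1, Col3a1, Pdgfra, Acta2, Myh11, Des, Cdh5 and Cd3d. Others were. Of 16 fibroblast markers 3 were measured on at least 1 organoid array, of 15 muscle and pacemaker markers 8, of 14 endothelial markers 6 and of 22 immune markers 11. Of 15 enteric neuron and glia markers 7 were measured, and of 15 pancreas and red cell markers 7. The measured muscle markers include Myl9 (3.73 on y-organoid, −2.66 on o-organoid).

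Fewer genes were higher than lower on the o-organoid array as scaled here, and the balance turned under 2 other scalings. Past 4-fold upward were 136 of the 15548 genes (0.875%), and 386 were past it downward (2.48%). The closest values on either side of the upper threshold were 1.996 and 2.01. Where a gene was well above background on only 1 organoid array, its difference is a lower bound, written as "at least". It was computed against the gene's own signal on the other array or the lowest signal well above background there, whichever was higher. In all, 21 such bounds passed 4-fold upward and 135 downward. The median difference over the 17290 genes well above background on at least 1 organoid array was −0.15, of which 8.08% lay 2-fold or more above 0 and 19.3% as far below, bounds included. Of the differences past 4-fold, 26.1% were upward as scaled here, 37.3% after quantile normalization (170 higher, 286 lower), 38% after a loess fit on mean signal (175 and 286), 81.6% in the authors' deposited value table (556 and 125) and 98% when the spike-in RNAs were set equal (2134 and 44). Before scaling, the 8 spike-ins above background on both arrays differed by a mean of −0.07, where the 75th percentiles were 281 and 641. Equal spike-ins add 1.26 to every difference and move the median of all genes to 1.05. That setting does not scale out the labelled input of 20 and 40 ng, whose part was not tested. The deposited table moves the median to 0.43. Dim genes also lay lower on the o-organoid array than bright ones, with a median difference of −0.67 over the 3277 genes with a mean signal between −4 and −2 and of 0.07 over the 3885 between 0 and 2. Every difference below is therefore relative to the other genes of the 2 arrays.

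**Figure D1:**
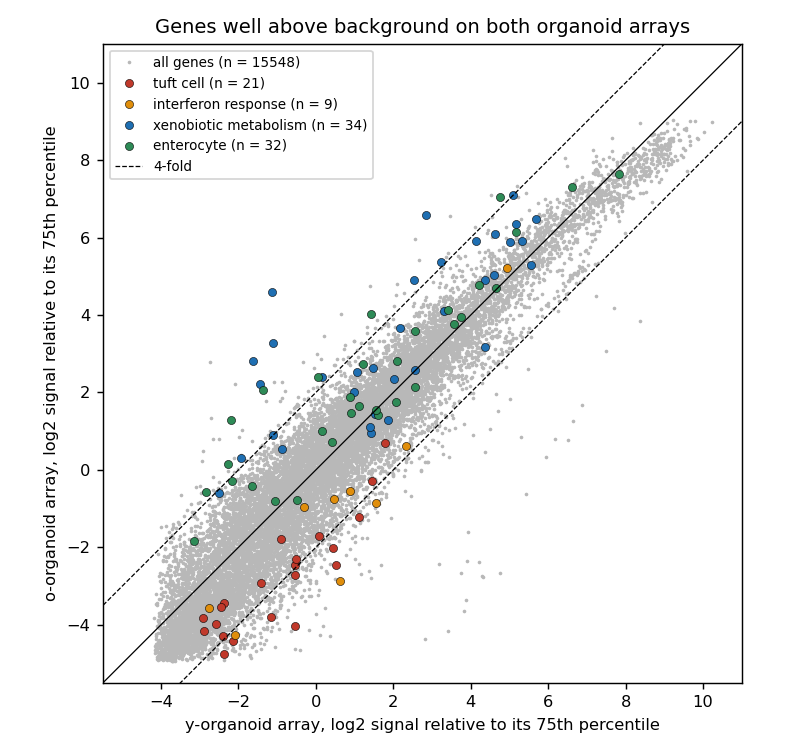
Signal of each gene on the y-organoid array (horizontal) and the o-organoid array (vertical), both log2 relative to the array's 75th percentile; grey points are the 15548 genes well above background on both arrays, coloured points are members of 4 gene lists, the solid line marks equal signal and the dashed lines 4-fold. Tuft cell genes lie below the solid line and many xenobiotic genes above the upper dashed line.

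Most of the largest downward differences were read by probes with a run of alternating A and G. Of the 20 genes with the largest downward difference, 15 were read by a probe that holds an AG repeat of 9 or more bases. Pieces of 3 such probes, for genes that are otherwise unrelated, are printed with the repeat in capitals, because that repeat is what they share.
Klra1: cagtgcaaAGAGAGAGAGAGAaaatctgga
Ddx25: aatattgaAGAGAGAGAGAGAagagaggcc
Tbx22: aaggaaagagaaAGAGAGAGAGAGAGAGAG
These pieces lie at chr6:130314098-130314127 (minus strand), chr9:35349561-35349590 (minus) and chrX:104881132-104881161 (plus) of mm9, in probes designed on transcripts of those genes. The Klra1 probe had signals of −3.28 on intestine, −2.63 on crypt, 3.82 on y-organoid and −3.65 on o-organoid, a difference of −7.46. The Ddx25 probe read −1.60, −1.53, 4.74 and −2.66 in the same order. Both were bright for y-organoid alone, and so was the probe for Tbx22 (difference −7.23).

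The difference grew with the length of the repeat. Probes with an AG run of 6 bases or fewer had a median difference of −0.16 (19857 probes), those with 9 or 10 bases −1.68 (22 probes), those with 11 or 12 bases −3.18 (9 probes) and those with 13 or more −5.67, of which 16 of 18 were at least 4-fold lower. The 46 probes whose longest 2-base repeat is an AG repeat of 9 or more bases had a median signal of 3.91 on y-organoid and of −0.50 on o-organoid, −0.28 on crypt and −0.62 on intestine. Probes with an AC repeat also lay lower on o-organoid (median −1.33, 77 probes), those with a GT repeat less so (−0.39, 157 probes), and those with a CT repeat, the complement of AG, did not (0.27, 45 probes). Of the 386 genes at least 4-fold lower, 29 were read by a probe with some 2-base repeat of 9 or more bases, and without such probes 358 genes were at least 4-fold lower and 136 at least 4-fold higher. Of the 15 genes above, 4 have another probe, and those probes were lower by less, from −1.47 for Rabgap1 to −0.39 for Dcaf12l2. What RNA bound the repeat probes was not tested, and genes that they read are not described further.

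**Figure D2:**
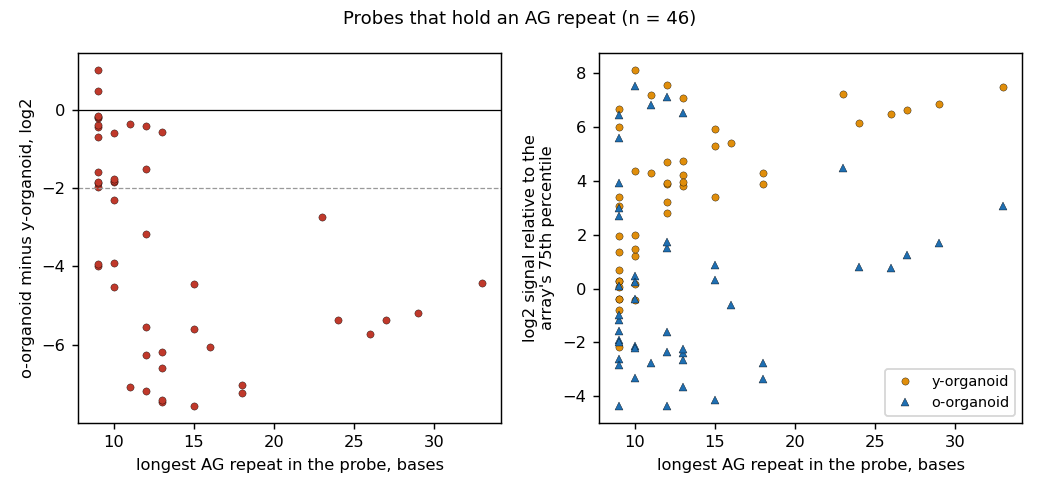
Each point is 1 of the 46 probes whose longest 2-base repeat is an AG repeat of 9 or more bases and that are well above background on both organoid arrays; the horizontal axis is the length of the longest repeat in bases, the left panel shows the difference and the right panel the signals on y-organoid (circles) and o-organoid (triangles), in log2. Of the 17 of these probes with 13 or more bases, 16 lie beyond −2 in the left panel.

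Tuft cell genes were lower on the o-organoid array. Of 28 on the list, 22 were measured, and 20 of these were at least 2-fold lower (background 19.3%), with a list median of −1.80 against −0.15 for all genes; the median stayed below 0 under all 10 alternative settings, from −1.82 to −0.54. Dclk1, a kinase of the microtubule cytoskeleton that marks tuft cells, had signals of −3.16 on intestine, −3.30 on crypt, −0.54 on y-organoid and −4.04 on o-organoid. Its difference of −3.50 is 11.3-fold, and the median of its other probes was −1.95. The y-organoid level thus stood above both tissues and the o-organoid level below them.

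Other genes of the list were lower as well. Trpm5, the cation channel that carries the taste response, read −2.39, −1.54, −0.54 and −2.72 in the same order of samples, a difference of −2.18. Hmx2 and Hmx3, homeobox factors, differed by −2.37 and −2.66. Pou2f3, the factor that tuft cells need to form, had signals of −3.80, −4.31, −2.88 and −4.16 and differed by −1.28. The Sh2d6 and Sh2d7 adaptors differed by −1.94 and −2.46. The kinase Bmx (−1.78), the guanine exchange factor Vav1 (−2.97; its other probe −0.57) and the adaptor Fyb (−2.28) were also lower. Eicosanoid genes of tuft cells were lower too: Alox5ap by −1.78, Ltc4s by −1.73, Ptgs1, the cyclooxygenase 1 gene, by −1.51 and Alox5 by −1.39. Il17rb (−0.92) and Rgs13 (−0.87) were lower by less than 2-fold.

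Among the 22 measured tuft genes, o-organoid held the lowest of the 4 signals for 18 and y-organoid the highest for 13. On crypt the level was exceeded by y-organoid for 16 and by o-organoid for 1. Chat, which makes acetylcholine, and Il25, the tuft cytokine, were not well above background on either organoid array, nor were Gnat3, Hpgds, Sucnr1 and Ptprc. Some of these genes are dim: Gfi1b (at least −1.82, below background on o-organoid), Hmx2 and Siglecf (−1.91) had signals under −2 on both organoid arrays, where the median of all genes is also below 0.

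**Figure D3:**
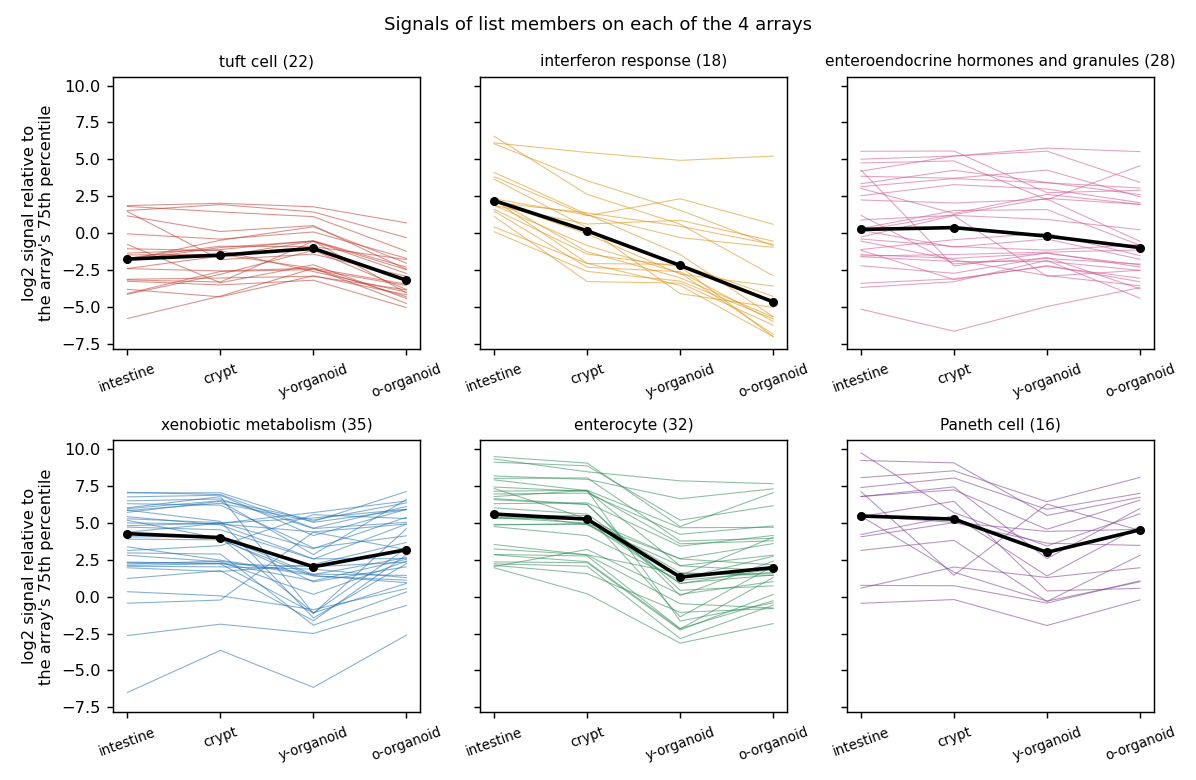
Signal of each measured list member on the 4 arrays (log2 relative to the array's 75th percentile); thin lines join the 4 signals of a gene, the black line joins the medians, and the number of genes is in each title. The tuft cell median was −1.03 on y-organoid and −3.18 on o-organoid, and the xenobiotic median 2.02 and 3.17.

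Genes induced by interferon were also lower on the o-organoid array. Interferons act through a transcription factor complex that holds Stat2 and Irf9 and binds a short promoter element, the interferon-stimulated response element. Of 24 such genes, 18 were measured and 14 of them were at least 2-fold lower on o-organoid (19.3% of all genes). The list median was −1.75 against −0.15 for all genes (from −1.95 to −0.49 under the alternatives, so below 0 in each). Many members were faint, with a median signal of −2.18 on y-organoid and −4.65 on o-organoid. All genes with a mean signal between −4 and −2 had a median difference of −0.67. Isg15, a ubiquitin-like modifier, had signals of 6.56 on intestine, 2.63 on crypt, 0.61 on y-organoid and −2.87 on o-organoid, a difference of −3.48 (its probe shares 20 bases with Gm9706). Oasl2 had 4.11, 1.28 and −1.44 and was not well above background on o-organoid, a difference of at least −3.56. Ifit3 (at least −2.74), Ifit1 (at least −2.40), Xaf1 (at least −2.31) and Usp18 (at least −1.98) behaved likewise. Oas1a, a sensor of double-stranded RNA, kept signals of 1.56 and −0.85 on the organoids, a difference of −2.41. Bst2 differed by −1.73, and Stat2 and Irf9 themselves by −1.41 and −1.23; Irf7 (−0.81) and Ifih1 (−0.65) were within 2-fold and Lgals3bp differed by 0.29.

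All 18 of these genes were lower on o-organoid than on crypt, and 17 had their lowest signal of the 4 arrays there. All 18 were well above background on y-organoid and 9 were so on o-organoid. Members not well above background on either included Ifit2, Mx1, Ifi44, Gbp2 and Trim30a. In promoters (250 bases before to 50 after the RefSeq start, GRCm38.p6), the letters GAAANNGAAA, searched on both strands, occurred for 10 of 17 list genes with a promoter sequence, against 1079 of 27025 genes in all (3.99%). Among list genes at least 2-fold lower, 7 of 10 held a match, and among those measured within 2-fold 1 of 3 did. The list was chosen as genes induced by interferon, so these shares say nothing about the difference between the organoids. Among all measured genes at least 2-fold lower the share was 4.54%, close to the 3.56% of all measured genes. Matches in 4 of the lower genes are printed with the matching letters in capitals, 5′ to 3′ on the strand of the gene, since they show the letters these 4 genes share.
Isg15: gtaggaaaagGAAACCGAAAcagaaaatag
Oas1a: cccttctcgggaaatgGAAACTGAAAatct
Ifit3: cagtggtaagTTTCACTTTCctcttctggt
Ifit1: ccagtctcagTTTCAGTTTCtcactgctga
They lie at chr4:156200871-156200900 (minus strand), chr5:120907526-120907555 (minus), chr19:34583363-34583392 (plus) and chr19:34640794-34640823 (plus) of GRCm38.p6, and the capitals begin 72, 14, 156 and 85 bases before the start. In Isg15 and Oas1a further matches overlap the one shown. The match is a description of the letters, not of binding.

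Antigen presentation genes of class I had the same median as all genes, −0.15. Of the immunoproteasome and its partners, Psmb8 had 4.43, 3.53, −1.59 and −4.28 (difference −2.69), Psmb9 4.33, 3.81, 1.01 and −1.05 (−2.06) and the peptide transporter Tap2 3.68, 3.13, 0.41 and −1.75 (−2.17), the same stepwise order as Isg15. The class I chains did not follow: H2-K1 differed by 0.04, H2-D1 by 0.59 and B2m by 0.50. Of 13 such genes 3 were at least 2-fold lower and none was higher by as much, near the 19.3% of all genes that were lower; the median turns positive under 3 of the 10 alternatives. Of 6 measured class II pathway genes 4 were lower (median −1.33; −1.35 to −0.07 under the alternatives), but only 2 after quantile normalization, 1 after loess, 1 in the deposited table and 0 with equal spike-ins. The signals were faint: H2-Ab1 was 6.43 on intestine, −3.22 on y-organoid and not well above background on o-organoid (at least −1.78), and Cd74 was −3.33 and −4.68.

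**Figure D4:**
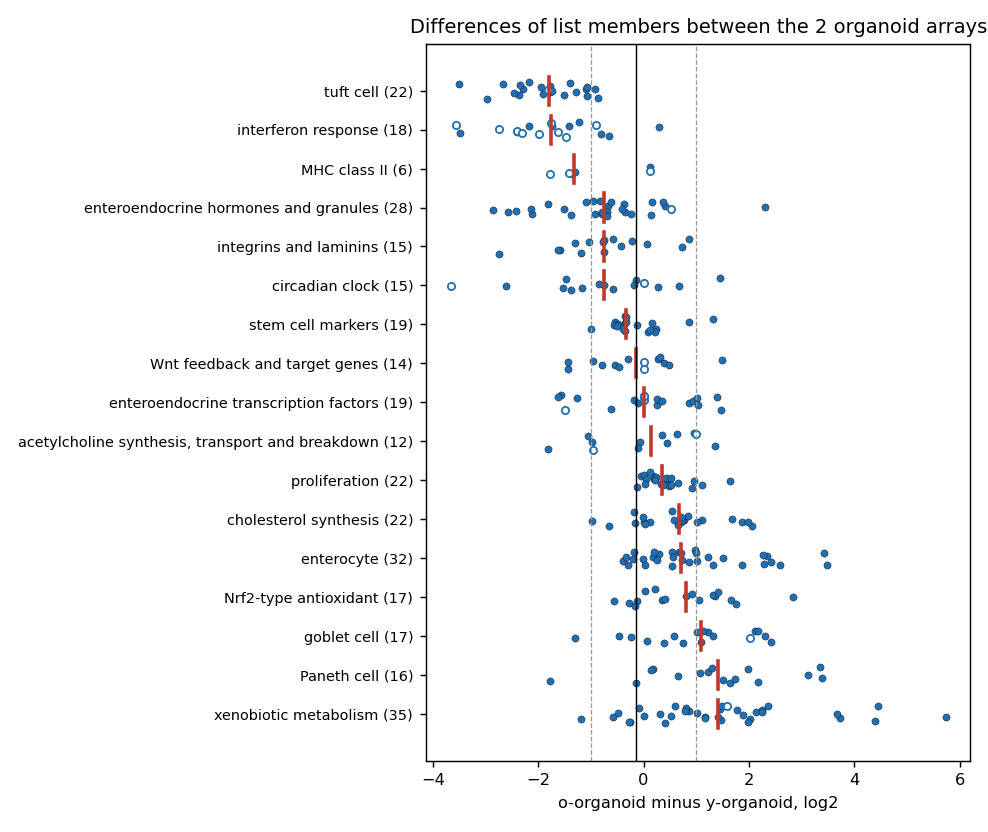
Each point is the o-organoid minus y-organoid difference (log2) of 1 measured member of 17 gene lists, with the number of members beside each name; open points are bounds, red bars are list medians, the black line is the median of all genes and the dashed lines are 2-fold. The points of the tuft list lie between −3.50 and −0.87, and those of the xenobiotic list between −1.19 and 5.74.

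Hormone and granule genes of enteroendocrine cells tended to be lower on o-organoid: 9 of 28 measured were at least 2-fold lower and 1 was higher (19.3% and 8.08% of all genes). Their median of −0.74 turns positive under 1 of the 10 alternatives, the spike-in scaling (0.52). Sst, which encodes somatostatin, read 2.25 on intestine, 2.05 on crypt, 2.31 on y-organoid and −0.54 on o-organoid, a difference of −2.85. Gcg, the precursor gene of glucagon-like peptides, read 0.31, 1.54, 1.60 and −0.81, a difference of −2.41. Both were thus near the tissue level on y-organoid and below it on o-organoid. Cck, for cholecystokinin, read 5.01, 5.22, 5.56 and 3.44 (−2.11), and Ghrl, for ghrelin, 3.86, 3.72, 4.28 and 2.46 (−1.82). The granule peptides Vgf (−2.56), Resp18 (−2.13) and Scg2 (−1.37) and the prohormone convertases Pcsk1 (−1.52) and Pcsk2 (−1.09) were also at least 2-fold lower. Gip (−0.92), Chga (−0.82), Pyy (−0.69), Tph1, which makes serotonin (−0.69), Tac1 (−0.41) and Chgb (−0.24) were lower by less, and Sct, for secretin, differed by 0.16. Ddc, the decarboxylase of serotonin and dopamine synthesis, which enterocytes express as well, was 2.27 and 4.56, a difference of 2.30 (its other probe 2.78).

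Transcription factors of that lineage had no common direction: of 19 measured, 4 were at least 2-fold higher and 4 lower, the latter share close to the 19.3% of all genes. Neurog3, which starts the endocrine programme, read 0.15, 1.65, 2.998 and 4.02 and differed by 1.02. Insm1 (1.40) and Pax4 (1.47), which act soon after it, were higher on o-organoid as well, and so was Runx1t1 (1.04). Neurod1 (0.26), Rfx6 (0.36), Nkx2-2 (−0.10) and Fev (0.85) lay within 2-fold. Those lower include Isl1 by at least −1.50, Lmx1a by −1.27 and Etv1 by −1.63. Apart from Neurog3 most of these factors are faint, with signals under −1 on at least 1 organoid array.

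Genes of xenobiotic metabolism were the largest upward differences. Of 35 measured, 21 were past 2-fold upward (background 8.08%) and 1 downward; their median was 1.41, above 0 under all 10 alternatives (1.10 to 2.67). Cyp2b10, a cytochrome P450 that oxidises drugs, read 6.01 on intestine, 6.76 on crypt, −1.15 on y-organoid and 4.59 on o-organoid, a difference of 5.74 or 53.3-fold. Cyp3a11 read 5.85, 5.09, −1.45 and 2.23 (3.68; its other probe 2.99), and Cyp2c29 2.34, 2.22, −1.11 and 3.28 (4.39). For each of these the y-organoid signal was the lowest of the 4. Of the 20 genes with the largest upward difference, 7 were cytochromes P450 and 4 UDP-glucuronosyltransferases, which attach glucuronic acid to drugs and steroids: Ugt2b5 (4.46), Ugt2b36 (4.32), Ugt2b37 (3.46) and Ugt2b38 (3.36).

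Whole gene families, drawn up as lists after these values were seen, were counted as well. Beside them, 8.08% of all genes were at least 2-fold higher and 19.3% lower. Of 39 measured members of cytochrome P450 families 1 to 3, 26 were at least 2-fold higher and 4 lower, with a median of 1.91; among them Cyp2c38 differed by 5.53, Cyp2c68 by 3.35 and Cyp2c67 by 3.26, the last pair sharing 20 bases between their probes. Cyp2w1 (−2.75) and the vitamin D hydroxylase Cyp2r1 (−1.64) went the other way. Of 10 UDP-glucuronosyltransferases 6 were higher, and of 11 carboxylesterases, which split ester drugs, 8. The alcohol and aldehyde dehydrogenases were mixed, with 6 of 21 at least 2-fold higher, 4 lower and a median of 0.46: Adh1 and Adh4 differed by 2.02 and 2.95, and Aldh3b3 and Aldh3a1 by −1.98 and −1.29. Aldh1a1, which makes retinoic acid, read 5.70, 6.45, 2.84 and 6.58 (3.73). The export pumps Abcb1a (1.46) and Abcg2 (1.16) and the glutathione transferase Gsta4 (1.49) were higher too. The nuclear receptors known to control many of these genes were not: Nr1i2 read 1.43 and 0.94 and Nr1i3 1.86 and 1.28 on y-organoid and o-organoid, while Ahr differed by 1.41. In the whole list, y-organoid was below crypt for 30 of 35 genes and o-organoid for 18.

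Enterocyte genes were higher on o-organoid, though both organoids remained below tissue. Of 32 measured, 12 were past 2-fold upward and none downward (8.08% and 19.3% of all genes). Their median of 0.72 stayed above 0 under all 10 alternatives (0.69 to 1.98). Slc6a19, the apical transporter of neutral amino acids, read 2.82 on intestine, 2.36 on crypt, −2.19 on y-organoid and 1.29 on o-organoid, a difference of 3.48. Rbp2, the intestinal retinol binding protein, read 5.47, 5.49, −1.37 and 2.05 (3.43). Alpi, intestinal alkaline phosphatase, read 5.69, 4.87, 1.42 and 4.01 (2.59). In each the o-organoid signal lay between y-organoid and crypt. The brush border peptidases Enpep (2.42), Mme (2.26) and Ace (1.88) and the lipid carriers Apoa4 (2.34) and Fabp2 (2.29) differed similarly, while the sugar transporters Slc2a2 (−0.29) and Slc5a1 (0.26), sucrase-isomaltase Sis (0.73), Apob (−0.40) and Krt20 (−0.33) were within 2-fold. All 32 genes were below crypt on both organoid arrays, and y-organoid was the lowest of the 4 for 26. Solute carriers as a whole stayed near all genes, with 26 of 255 at least 2-fold higher (8.08% of all genes) and 47 lower (19.3%). Against −0.15 for all genes, the median of these carriers was −0.07, in a list drawn up after values were seen. Among them Slc5a4b differed by 4.04, the amino acid carriers Slc3a1 and Slc7a9, which work as a pair, by 1.95 and 1.75 and the zinc importer Slc39a5 by 2.14, against Slc38a11 with −2.92, Slc7a3 with −2.88 and Slc28a2 with −2.62. The water channel Aqp3 differed by at least 3.21. Cftr, the chloride channel of crypts, went the other way with 0.96 and −1.14 (−2.10).

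Paneth and goblet cell genes were also higher on o-organoid, unlike those of tuft and hormone cells. Of 16 measured Paneth genes 11 were at least 2-fold higher and 1 lower (8.08% and 19.3% of all genes). Their median was 1.41 (1.27 to 2.67 under the alternatives). Muc2 of the goblet list and Defa17, Defa20, Defa22 and Defa24 of the Paneth list matched no named gene of the array. Lyz1, lysozyme, read 7.38, 8.03, 5.91 and 6.99 (1.08), and Mmp7, the protease that activates defensins, 3.13, 3.81, −0.33 and 2.79 (3.12). Defa21 (3.35) and Defa5 (1.98) were higher, and Defa26 differed by 3.39 with a probe that shares 20 bases with other defensin genes. The brightest defensin probes differed little, for example Defa1 (9.25 and 8.80), and such near-identical copies may share RNA. Itln1, a lectin, differed by 1.64 and Pla2g2a, a phospholipase, by 1.74. Ang4 (−0.15) and Xbp1 (0.14) did not differ by 2-fold, and Nupr1, a stress-response regulator, was lower by −1.78. Of 17 measured goblet genes 10 were at least 2-fold higher and 1 lower, against the same shares of all genes. Their median was 1.09 (0.95 to 2.35 under the alternatives). Zg16, a mucus lectin, read 9.93, 8.83, 1.58 and 3.88 (2.30), Agr2, which folds mucin, differed by 1.23, and Tff3 (−0.24), Muc13 (0.06) and Spdef (0.39) lay within 2-fold. For Clca1 (−1.30; other probe 1.64) and Fcgbp (1.09; other probe −1.47) the probes disagreed in sign.

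Stem cell markers differed little. Of 19 measured, 1 was at least 2-fold higher and none lower (8.08% and 19.3% of all genes). Their median of −0.34 is positive under 2 of the 10 alternatives. Lgr5, the R-spondin receptor that marks the crypt base, read −1.75 on intestine, −0.39 on crypt, 2.85 on y-organoid and 2.32 on o-organoid, a difference of −0.53. Olfm4 read 1.09, 2.41, 3.83 and 3.50 (−0.33), and Ascl2, a Wnt-driven factor of stem cells, 0.95, 2.40, 3.95 and 3.83 (−0.12). On both organoid arrays these 3 genes stood above crypt, and the gap between the organoids was smaller than that between either organoid and crypt. Smoc2 (−0.40), Prom1 (−0.57), Aqp4 (−0.35), Ephb2 (−0.34), Msi1 (−0.48), Slc12a2 (−0.51) and Cdk6 (−0.35) also differed slightly downward, and Tnfrsf19 by −0.996 (its other probe −2.21). Rgmb (0.09), Tert (0.13), Hopx (0.17), Sox9 (0.22), Cdca7 (0.23) and Lrig1 (0.87) differed upward, and Bmi1 by 1.31 (its other probe 0.90).

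The signalling pathways around the stem cell gave mixed values. Of the Wnt feedback genes, Axin2 read −0.16 and −1.59 (−1.43) and Tcf7 −1.30 and −2.73 (−1.44), while the inhibitor Nkd1 differed by 1.49, Sp5 by 0.32 and Myc by 0.48; 2 of 14 were at least 2-fold lower and 1 higher. Sfrp5, a secreted Wnt inhibitor, read 0.05, 2.35, −0.17 and −4.14 (−3.97). Wnt3, the Wnt of Paneth cells, was not well above background on y-organoid and was −2.17 on o-organoid (at least 2.03). In the Notch pathway, 3 of 18 genes were at least 2-fold higher and 1 lower: the receptor gene Notch1 was lower (−1.60) and the ligand gene Dll4 (1.26), the modifier Lfng (1.28) and the secretory factor Atoh1 (1.15) higher, with Hes1 at −0.13. Of 14 genes of the bone morphogenetic protein pathway 5 were lower and 1 higher: its inhibitor Nog differed by −2.28, and Id3, a target of that pathway, by 1.55 (Id1 by 0.21). Areg, the EGF family ligand amphiregulin, read −0.28, −2.30, 4.05 and 0.90 (−3.14), but only 3 of the 17 measured EGF family and ERK feedback genes were at least 2-fold lower and none higher, a share below the 19.3% of all genes; their median was −0.26, positive under 2 of the 10 alternatives. Cell cycle genes were slightly higher on o-organoid: 20 of 22 were above y-organoid and 17 had their highest signal of the 4 arrays there, with a median of 0.35 that stayed above 0 under all 10 alternatives (0.33 to 1.61). Past 2-fold were Mcm5 (1.65) and Top2a (1.12), and none was as far below; Mki67 differed by −0.12.

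Genes of the acetylcholine system, the subject of the study, showed no common direction. Of 12 measured synthesis, transport and breakdown genes 1 was at least 2-fold higher and 2 were lower, near the 8.08% and 19.3% of all genes. Their median of 0.14 is negative under 2 of the 10 alternatives. Chat and the neuronal choline transporter Slc5a7 were not well above background on either organoid array. Slc44a1, a choline transporter, read 1.88 and 0.06 (−1.81; other probes −0.64), and Slc44a2 differed by −0.97, Slc44a3 by 0.96 and Slc44a4 by 0.63. Slc18a3, the vesicular acetylcholine transporter, was faint at −3.53 and −4.59. The carnitine acetyltransferase Crat differed by at least 0.99, Pemt by 0.44, Chka by −0.07 and Chkb by −0.11. Bche, butyrylcholinesterase, read 2.91 and 3.26, and Ache was well above background on y-organoid only (at least −0.96).

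Of 21 receptor genes 9 were measured, all with signals under −1 on both organoid arrays. The muscarinic receptor gene Chrm3 read −4.58 on intestine, −4.60 on crypt, −1.49 on y-organoid and −2.33 on o-organoid (−0.84), so that both organoid arrays stood above tissue. Chrna4 (−1.35), Chrna9 (−1.16), Chrnb2 (−1.14), Chrna10 (at least −1.36) and Chrnb4 (at least −1.34) were at least 2-fold lower, Chrna2 differed by −0.67, and Chrm4 (at least 0.34) and Chrnb1 (at least 0.62) were measured on o-organoid only. Their median was −1.14, where all genes with a mean signal between −4 and −2 had −0.67 and those between −6 and −4 had −0.80, and it turns to 0.12 with equal spike-ins.

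Lipid and stress genes formed smaller groups. Among the 22 genes of cholesterol synthesis, 6 were past 2-fold upward and none downward (median 0.68; 0.64 to 1.94 under the alternatives). Dhcr7, the last enzyme of the pathway, read −0.20 and 1.87 (2.06), Nsdhl differed by 1.86 and Lss by 1.69. Scd1, which desaturates fatty acids, read 0.59, −2.89, −0.89 and 2.26 (3.15), and Fads1 differed by 1.86. Of 17 Nrf2-type antioxidant genes 7 were higher and none lower (median 0.81): Hmox1, haem oxygenase, read −0.79 and 2.04 (2.84; other probe 0.94), Pgd differed by 1.76 and Gclm by 1.65. The cystine carrier Slc7a11 differed by 2.19 and the mitochondrial arginase Arg2 by 3.06. Of 21 p53 targets 6 were lower and 1 higher (median −0.44, positive under 2 of the 10 alternatives), not far from the 19.3% and 8.08% of all genes; the lower ones include Phlda3 (−1.86), Gdf15 (−1.64) and Bax (−1.18). Of 15 clock genes 6 were lower and 1 higher (median −0.75, positive with equal spike-ins), among them Per3 by at least −3.66, Npas2 by −2.60, Dbp by −1.52, Per1 by −1.47 and Cry2 by −1.18, against Arntl with 1.46. Of 15 integrin and laminin chains 6 were lower, led by Lama5, a chain of the epithelial basement membrane (2.71 and −0.03; −2.74). Of 12 iron handling genes 2 were lower, close to the 19.3% of all genes: Tfr2 (−3.53) and the duodenal reductase Cybrd1 (−2.16, other probe −2.50). Another 2 were higher, Hmox1 and the transferrin receptor gene Tfrc (1.20). Of 11 retinoid genes 5 were higher and 2 lower; the homeobox factor Isx (−1.95) was lower while Bco1, the enzyme that it represses, was higher by at least 2.64.

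The genes with the largest downward differences and no repeat in the probe include some known from other tissues. Myl9, a myosin light chain of smooth muscle, read 5.90 on intestine, −4.06 on crypt, 3.73 on y-organoid and −2.66 on o-organoid, a difference of −6.40. Of the other muscle and pacemaker markers, Acta2, Actg2, Myh11, Cnn1, Des, Lmod1 and Tpm2 were not well above background on either organoid array. Ano1 differed by −1.63, Tagln by −0.75, Smtn by −0.49 and Mylk by −0.30, while Tpm1 (1.01) and Kit (1.27) were higher. Afp, alpha-fetoprotein, read 1.56, 1.94, 3.18 and −2.43 (−5.61), and Myh7, a cardiac myosin, −3.76, −4.24, 0.36 and −4.28 (−4.64). Crym, which binds thyroid hormone, and Rps4l, a copy of a ribosomal protein gene, were present in both tissues and in y-organoid and not well above background in o-organoid (at least −4.68 and −4.52). Gas6, a ligand of TAM receptors, differed by −3.43, Vsig2 by −3.85, Nrn1 by −4.25 and Col26a1 by −4.22 (its other probe −4.24). Upward, Rbp7 (3.28), the ribonuclease Ang2 (3.40) and, as bounds, Cyp3a16 (3.57), Cyp2b9 (2.76) and Fmo4 (2.47) were among the largest differences.

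Nuclear and ribosomal RNAs, which do not code for protein, were lower as well. In a list drawn up after values were seen, all 13 measured nuclear and ribosomal RNAs were lower on o-organoid, with a median of −1.76. Of these, 11 were at least 2-fold lower (19.3% of all genes), and crypt was below y-organoid for all 13. Rnu1b6, a spliceosomal RNA, read 6.37, 6.09, 7.69 and 4.18 (−3.50), Malat1 differed by −2.53, Rn28s1 by −1.76 and Rn18s by −1.23. Of 13 mitochondrially encoded transcripts 12 were lower, 5 of them by at least 2-fold, with a median of −0.56, and ND6, the one encoded on the other strand, differed by −3.08. Cytosolic ribosomal protein genes had a median of −0.48, which is positive under 3 of the 10 alternatives. Only 4 of 82 were at least 2-fold lower, a share below the 19.3% of all genes, and none was higher by as much. The part of such a difference in RNA makeup in the results above was not tested. In these same arrays 61.3% of all measured genes had an o-organoid signal nearer to crypt than the y-organoid signal was, against 26 of 32 enterocyte, 15 of 16 Paneth and 5 of 22 tuft cell genes.

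**Figure D5:**
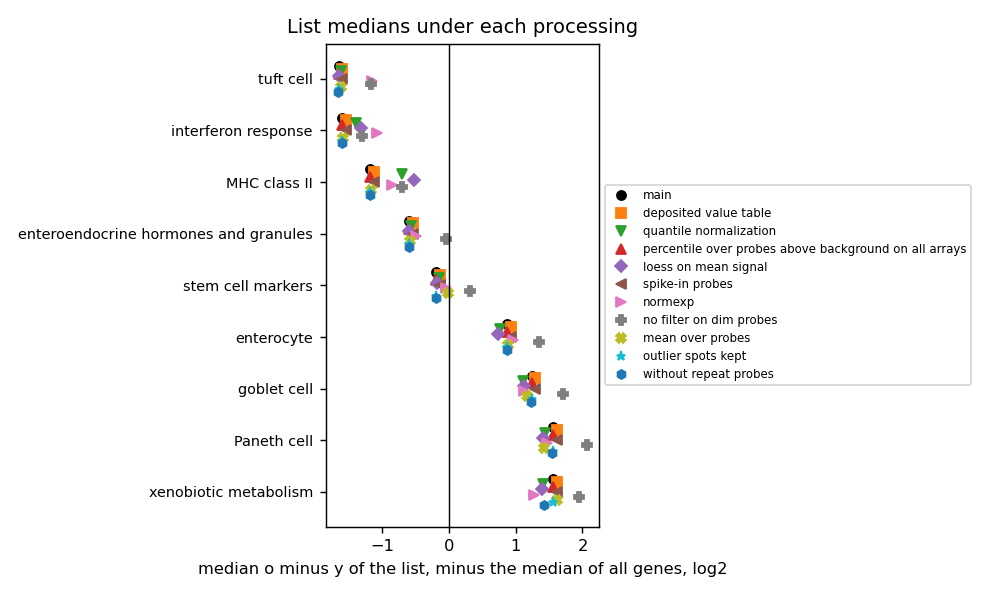
Median difference of 9 gene lists minus the median of all genes (log2), with a marker for each of the 11 processing settings. The tuft, interferon and class II lists lie to the left of 0 under every setting (for tuft between −1.66 and −1.15) and the enterocyte, goblet, Paneth and xenobiotic lists to the right; the stem cell list lies on both sides of 0.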

How the data were processed

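The authors deposited 1 scanner file for each of the 4 arrays and a value table. Intensity values are linear; per the file headers they are the processed signal of Feature Extraction 10.7.3.1 (Agilent), already corrected for background; the flags for outlier spots and for spots well above background are from the same files. The authors' deposited value table holds a ratio, the processed intensity over a constant for each array (25.2 for y-organoid, 36.9 for o-organoid), found by comparison with the scanner values. Labelling with Cy3 by a low-input kit is per the labels' protocols.

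Control spots (1377 an array) and outlier spots were left out, repeated spots were averaged within a probe, and every array was divided by its 75th percentile before log2 was taken. Probes were named through the RefSeq table of GRCm38.p6, 27228 by accession, 3581 by symbol and 565 by synonym, and 8055 keep the name in the files. A gene is read by its brightest probe over the 4 arrays and takes that probe's background flags; where that probe is not well above background on either organoid array, the gene has no difference. Python 3.11.15, pandas 2.3.3, R 4.3.3 and limma 3.58.1 were used, and the steps were tested on simulated data. The rule for named genes took, upward and downward, the 20 largest differences and the 10 largest bounds, then at most 8 genes per list, and any gene of the stem cell, enteroendocrine, tuft, Paneth, acetylcholine and receptor lists; other genes named, most of them within 2-fold, were picked after their values were seen. The comparison, its 62 gene lists and this rule were chosen with earlier results of these data known, and the lists of P450 and other drug-metabolising families, defensins and nuclear RNAs after the values were seen. Alternatives were the deposited table, quantile normalization, a percentile over probes above background, loess, spike-ins, normexp with an offset of 50, no filter on dim probes, the mean over probes, outlier spots kept and, added after seeing the data, no repeat probes. Some members counted in the lists are not reported here by name.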

Additional observations from a re-analysis of the deposited data

How the results depend on the processing

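No paired analysis was possible because each group has 1 array; for the same reason no array could be left out in turn. The count of genes at least 4-fold higher (136) became 556 in the deposited value table, 2134 with spike-in probes set equal, 74 after normexp and 238 with no filter on dim probes; the count lower (386) became 125, 44, 123 and 1125. Lists with a median at least 2-fold higher (3) became 10 in the deposited table and 36 with spike-ins; those at least 2-fold lower (7) became 2 in the deposited table, 2 after quantile normalization, 2 after loess, 0 with spike-ins, 3 after normexp and 3 with no filter. With spike-ins, 4 list medians past 2-fold reversed: Wnt ligands and R-spondins to 0.16, the acetylcholine receptors to 0.12, endothelium to 0.21 and Hox genes to 0.15. None of the 137 named genes past 4-fold changed sign under an alternative (1356 values). These genes were picked for a difference of at least 2, and equal spike-ins add only 1.26 to every difference. A change of sign was therefore unlikely from the start, and its absence says little. Of 62 list medians, 19 stayed on the same side of 0 under all 10 alternatives and 42 on the same side of the median of all genes. The cause of these shifts was not tested. Signal over background limits the faint lists: the lowest signal well above background was −4.20 on y-organoid and −5.00 on o-organoid, so a downward bound can reach further than an upward one.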

Other observations

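Some imprinted genes, drawn up as a list after values were seen, were well above background on y-organoid and not on o-organoid. Dlk1 was lower by at least −4.07 and Grb10 by at least −3.29, and the imprinted noncoding RNAs Airn (−2.32) and Kcnq1ot1 (−1.93) were lower as well. Cdkn1c (0.47), Gnas (0.67), Plagl1 (0.75) and Phlda2 (0.79) were not, and the median of the 15 measured genes was −0.08. Of 7 measured interferon-inducible GTPases, in a list also drawn up after values were seen, 4 were at least 2-fold lower (19.3% of all genes). A repeat probe read 1 of these. Igtp (−3.17) and Iigp1 (−1.49) were among them, while Gbp10 (−0.90), Gbp5 (−0.76) and Irgm1 (−0.20) were within 2-fold.

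Y-linked transcripts were read on both organoid arrays: Eif2s3y had signals of 1.28 on y-organoid and 0.86 on o-organoid, and Ddx3y 0.09 and −0.47. On crypt they read 1.08 and −1.04, and on whole intestine −6.22 and −6.54, where Xist read −1.17 against −6.22 on crypt.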
